A study of Mus musculus with 12 samples.

Results

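The genes described here encode the proteins of the cytosolic ribosome. They were chosen by name: every probe whose gene symbol begins with Rpl or Rps and a digit, or is Rplp0, Rplp1, Rplp2 or Rpsa, with Rps6k and other kinase genes left out. Of 25697 probes on the array, 84 met this rule, and 75 of them were detected (detection p under 0.05) on 3 or more of 12 arrays. These 75 probes represent 60 genes, and lie among 14599 probes, for 9879 named genes in all, that passed the same filter. They are 25 probes for 21 proteins of the small (40S) subunit, 39 probes for 30 proteins of the large (60S) subunit, 3 probes for the stalk proteins Rplp0 and Rplp1, 7 probes for 6 paralogs, and 1 probe for Rps19bp1, which carries the family name but encodes a binding partner of Rps19 and not a ribosomal protein.

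A ribosome is built from ribosomal RNA and a fixed set of proteins, the Rps proteins in the small subunit that reads the message and the Rpl proteins in the large subunit that joins the amino acids. Most of these messengers begin with a C followed by an unbroken run of pyrimidines, the terminal oligopyrimidine or TOP tract, through which the kinase mTOR and the protein Larp1 control how well they are translated. Low oxygen is known to restrain mTOR and protein synthesis in many cells. An array measures the level of the messenger and says nothing of its translation.

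All cells came from 1 line, CCE, a male and wild-type line of mouse embryonic stem cells of strain 129/Sv, which was grown as embryoid bodies for 4 days, sorted for Flk1, the VEGF receptor of early vascular and blood progenitors, and cultured for 4 days more on collagen IV. The normoxia group was kept at 21% oxygen and the hypoxia group at 1.5 to 2%, and a further group at each oxygen level was given L-685.458 at 4 µmol/l. This compound blocks gamma-secretase, which cuts Notch receptors and so frees their active part. No vehicle is named for the groups without the inhibitor. CD31-positive cells were then sorted from each culture, and RNA of 3 cultures per group, called biological triplicates and numbered 1 to 3, was measured on 1 Illumina bead array each. The series compares arterial differentiation under these conditions. The labels do not say whether cultures shared a sort or a day.

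Each array detected 13085 to 13901 probes, and 72 to 75 of the ribosomal protein probes. As a check of the oxygen labels, all 16 measured targets of the hypoxia-inducible factor HIF had positive changes in hypoxia averaged over the inhibitor. Of these, 11 passed the test (13 with a replicate block), among them Egln3, the HIF prolyl hydroxylase, by 2.13 on the log2 scale. By array, these targets were weaker in hypoxia with inhibitor 3 than on the other hypoxia arrays. Their median log2 deviation from their means was -0.17 there, against 0.67 and 0.59 on replicates 1 and 2 of its group. It was 0.47 to 0.62 in hypoxia, -0.55 to -0.46 in normoxia and -0.50 to -0.42 in normoxia with inhibitor. Whether this array's weaker HIF signal bears on its ribosomal protein values was not tested. Of 15 endothelial markers 14 were measured, with a summed signal of 70486 to 107214 per array, but 14 of 16 pluripotency markers were measured too. Their summed signal was 27294, 27256 and 11534 in normoxia 1, 2 and 3, and 23606, 23179 and 3690 in normoxia with inhibitor. It was 10911, 12626 and 11585 in hypoxia, and 9062, 8685 and 2851 in hypoxia with inhibitor. These sums were thus highest on replicates 1 and 2 in normoxia, and the array of replicate 3 was the lowest in 3 of the 4 groups. The median ribosomal protein difference in hypoxia, given by replicate number further on, was also larger for numbers 1 and 2 than for 3, and the part of other cells in it was not tested. In a bulk sample, fewer cells of a type and less RNA per cell cannot be told apart.

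The sequence around the annotated start of transcription shows the TOP tract from which the family's shared control takes its name. Of the 53 ribosomal protein genes kept, without paralogs, 45 had a promoter in the RefSeq table (mouse build GRCm38.p6). The windows below run from 10 bases before the first base of the first-listed transcript to 20 bases from it, on the gene's own strand, with an unbroken run of pyrimidines that starts with C at that first base in capitals. The first 6 are shown for such a tract, the last 3 because their genes lead the results described later and have no tract at this annotated base.
Rps6: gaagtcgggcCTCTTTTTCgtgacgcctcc
Rpl35: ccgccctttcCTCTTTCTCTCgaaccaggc
Rps10: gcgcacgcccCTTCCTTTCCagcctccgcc
Rpl38: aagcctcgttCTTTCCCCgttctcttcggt
Rps15a: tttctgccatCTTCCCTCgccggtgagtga
Rps21: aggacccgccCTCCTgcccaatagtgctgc
Rps19: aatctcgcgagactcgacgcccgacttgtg
Rpl36a: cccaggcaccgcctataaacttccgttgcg
Rps24: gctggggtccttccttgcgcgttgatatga
In build GRCm38.p6 these lie at chr4:86857348-86857377 on the minus strand for Rps6, chr2:39005112-39005141 minus for Rpl35, chr17:27635225-27635254 minus for Rps10 and chr11:114668570-114668599 plus for Rpl38. Rps15a is at chr7:118116128-118116157 minus, Rps21 at chr2:180257369-180257398 plus and Rps19 at chr7:24884582-24884611 plus. Rpl36a is at chrX:134585644-134585673 plus and Rps24 at chr14:24490668-24490697 plus.

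A tract of at least 5 bases at the annotated start was present in 9 of the 45 genes (20%), against 2.49% of the 27025 genes in the table. A run of a C and at least 6 further pyrimidines within 25 bases either side of the start was present in 23 of 45 (51.1%), against 22.7% of all genes, and Rps24 is among these. In the 300 bases from 250 before to 50 after the start, searched on both strands, CTTCCG, a core that ETS factors are known to bind, was present in 32 of 45 (71.1%, against 17.2% of all genes). TCTCGCGA was present in 8 (17.8%, against 1.08%), AAGATGG, known as a YY1 motif, in 8 (17.8%, against 6.48%), and GGGCGG, the GC box, in 27 (60%, against 35.9%). The E-box CACGTG was present in 5 (11.1%, against 7.24%), and ACGTG, the core of the hypoxia response element, which also matches inside CACGTG, in 15 (33.3%, against 19.7%). No gene of the 45 held TATAAA between 40 and 15 bases before the start on its own strand (2.22% of all genes). These are matches of letters in fixed windows and not measured binding.

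Most of the family was bright. The mean log2 signal over 12 arrays was above 10 for 59 of the 75 probes, and the family took 8.26 to 9.17% of the summed signal of an array. The highest means were those of Rplp1, a stalk protein that recruits elongation factors (16.05), Rpl41 (16.02), Rps20 (15.85), Rpl38 (15.83) and Rps2 (15.65). The lowest were Rpl39l (4.96), Rpl3l (4.99), a second Rplp0 probe (5.01), Rpl14 (5.71) and a second Rpl27a probe (5.89). A probe's signal also depends on its sequence, so this order does not rank messengers by abundance: Rplp0 itself had a brighter probe at 10.66. Quantile normalization gives the top ranks nearly the same value on every array, so Rplp1 and Rpl41, whose values spanned only 0.07 over the 12 arrays, could hardly differ between arrays.

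Detection separated a few members from the rest. Rpl39l, a paralog of Rpl39 known from the testis, was detected on 3 arrays, 2 in normoxia and 1 in normoxia with inhibitor, and Rpl3l, a paralog of Rpl3 known from muscle, on 4. The second Rplp0 probe was detected on 5 arrays, and Rpl14 and the second Rpl27a probe on 11. The other 70 probes were detected on all 12. The 9 probes left out were not detected on any array. They are those of Rpl6, Rpl17, Rps23, Rplp2, Rps23rg1, both of Rpsa and 2 further probes of Rpl37, whose remaining probe was kept. Their deposited signals lay between -19.8 and 20.3, and as Rpsa and Rpl6 are universal ribosomal proteins such a value describes the probe and not the gene. Rpl11, Rps18, Rps29, Rps27a, Rpl10l, Rps4l and Rpl37rt were not analysed here.

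Arrays of 1 group agreed closely on these probes. The median within-group SD was 0.13 on the log2 scale, and 0.11 for the 59 bright members, against 0.22 for all 14599 probes and 0.15 for all probes with a mean above 10. These last sets are not matched in signal: the median of their mean log2 signals was 14.18 for the bright members and 11.15 for all probes above 10. The median range over the 12 arrays was 0.44, against 0.74 for all probes.

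In hypoxia most ribosomal protein probes were slightly lower than in normoxia, and no single member passed the test in the fit without the replicate number. Averaged over the inhibitor, the log2 change was negative for 67 of 75 probes (52.1% of all probes tested) and its median was -0.11, a fold of 0.929, against -0.01 over all probes. Among the 59 bright members 57 were negative, with a median of -0.11. Over all 2870 probes with a mean above 10, a less bright set, the median was -0.01. The small subunit had 23 of 25 negative (median -0.09), the large subunit 36 of 39 (median -0.11), the stalk 2 of 3 and the paralogs 6 of 7 (median -0.18). With limma and Benjamini-Hochberg adjustment over all probes, 0 of 75 were called lower and 0 higher, where 2.46% of all probes were called lower and 2.84% higher. At an unadjusted p under 0.05 there were 11 lower (10.1% of all probes) and 1 higher (9.63%). All 6 normoxia arrays lay above all 6 hypoxia arrays for 6 members, against 2.54% of all probes, and no member showed the opposite (2.17%). With a replicate block 3 members were called lower (4.32% of all probes). Without the 4 arrays of replicate 3 it was 9 (9.66%), of which 8 were Rpl36a, Rpl13a, Rpl22, Rpl23a, Rpl24 and the bright probes of Rps19, Rpl4 and Rpl29, with log2 changes of -0.29 to -0.24. The other was Rpl39l, which was kept only through normoxia arrays and was not detected in hypoxia, so its call is no measured change.

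On the normalized scale, the intervals bounded the size of the change for most members. The 95% interval of the oxygen effect lay within 1.5-fold in either direction for 72 of 75 probes, including all 59 bright members (78.8% of all probes). It lay within 1.25-fold for 36. For members at the top ranks, whose values quantile normalization holds close, a narrow interval may partly reflect that step.

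**Figure D1:**
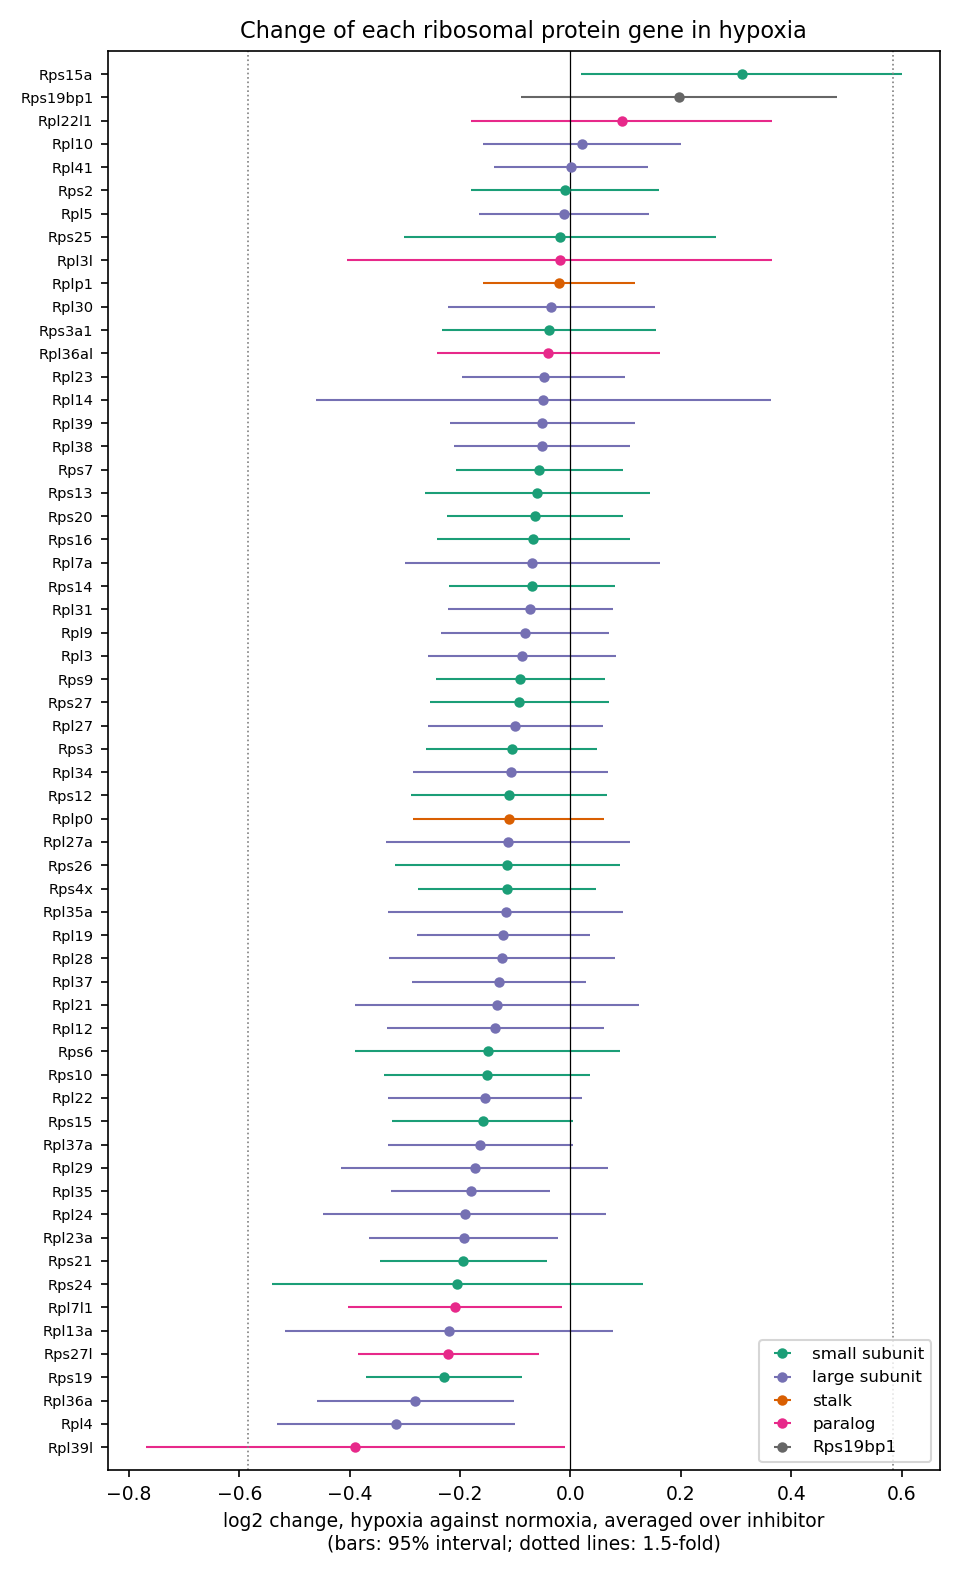
Log2 change in hypoxia against normoxia, averaged over the inhibitor, for the brightest probe of each of the 60 genes (horizontal axis), sorted by change; points are estimates from 12 arrays, bars their 95% intervals, colours the role, and dotted lines mark 1.5-fold. Most points lie just left of 0, with a median of -0.11, up to 0.31 for Rps15a, and the leftmost point is Rpl39l, which was not detected on any hypoxia array.

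Rps19, a small-subunit protein needed to mature 18S ribosomal RNA and the gene first linked to Diamond-Blackfan anaemia, showed the clearest separation. The log2 signals of its bright probe were 15.16, 15.16 and 15.09 in normoxia 1 to 3 and 15.11, 15.14 and 15.06 in normoxia with inhibitor. They were 14.93, 14.97 and 14.91 in hypoxia and 14.85, 14.87 and 14.83 in hypoxia with inhibitor. Every hypoxia array lay below every normoxia array, and the 2 hypoxia groups did not overlap each other. The change averaged over the inhibitor was -0.23 (SE 0.06, 0.853-fold, limma adjusted p = 0.0637), and with a replicate block the adjusted p was 0.0389. A dim second probe of Rps19, at a mean of 5.99, had a change of 0.25 (SE 0.13, adjusted p = 0.317), so the direction rests on the bright probe.

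Rpl36a, a large-subunit protein, had log2 signals of 13.10, 13.17 and 13.24 in normoxia and 13.04, 13.06 and 13.22 in normoxia with inhibitor. They were 12.68, 12.91 and 13.03 in hypoxia and 12.80, 12.85 and 12.88 in hypoxia with inhibitor. All hypoxia values were below all normoxia values, the closest being hypoxia 3 and normoxia with inhibitor 1. The change was -0.28 (SE 0.08, limma adjusted p = 0.0726, and 0.0272 with a replicate block). Its paralog Rpl36al had a change of -0.04 (SE 0.09). Probes may not tell such near-identical messengers apart, so both values are uncertain in that respect.

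Rpl4, a large-subunit protein that lines the exit tunnel, had a pair of probes with changes of like size. The bright probe read 11.24, 11.22 and 11.35 in normoxia, 11.04, 10.99 and 11.38 in normoxia with inhibitor, 10.92, 10.95 and 11.21 in hypoxia, and 10.83, 10.85 and 10.56 in hypoxia with inhibitor. Hypoxia 3 lay within the range of normoxia with inhibitor, so these groups overlapped. The change was -0.32 for this probe (SE 0.10, adjusted p = 0.0933) and -0.33 for the dim probe (SE 0.12, adjusted p = 0.159, and 0.0251 with a replicate block).

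The other members with complete separation were Rps27l, Rps21, Rpl35 and Rpl23a. Rps27l, a paralog of Rps27 and a known p53 target, read 14.47, 14.48 and 14.62 in normoxia, 14.39, 14.49 and 14.62 in normoxia with inhibitor, 14.21, 14.18 and 14.35 in hypoxia and 14.30, 14.35 and 14.34 in hypoxia with inhibitor. Its lowest normoxia value was only just above its highest hypoxia value, and the change was -0.22 (SE 0.07, adjusted p = 0.121). Rps21, on the small subunit, had a change of -0.19 (SE 0.07, adjusted p = 0.138), Rpl35 had -0.18 (SE 0.07, adjusted p = 0.149) and Rpl23a, part of the tunnel exit where new chains leave, had -0.19 (SE 0.08, adjusted p = 0.194).

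**Figure D2:**
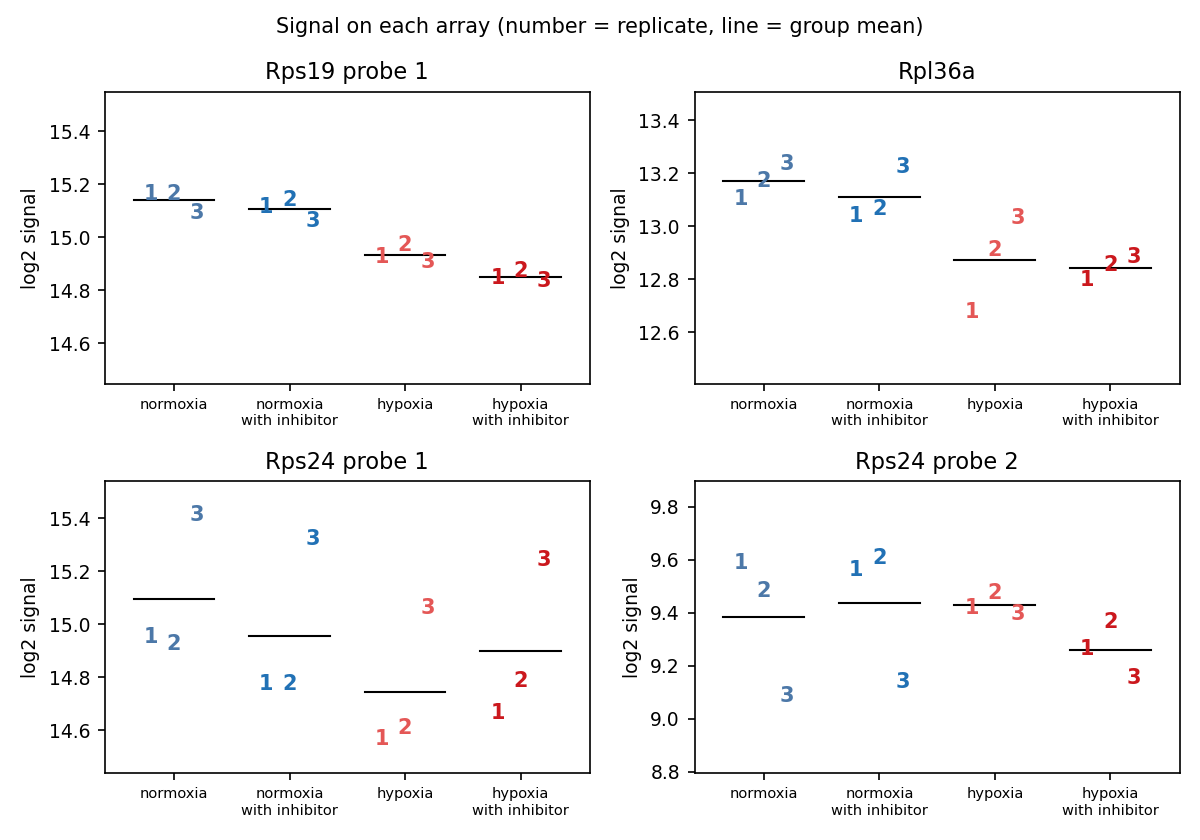
Log2 signal of the bright Rps19 probe, Rpl36a and both Rps24 probes in each of the 4 groups (horizontal axis); digits are the replicate numbers and lines the group means, and each panel spans the same log2 height. Rps19 and Rpl36a separate by oxygen, with changes of -0.23 and -0.28, while the bright Rps24 probe separates replicate 3 from replicates 1 and 2 by 0.50.

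Other well-known members had small changes. Rpl5, which with 5S ribosomal RNA binds Mdm2 and so links ribosome assembly to p53, read 14.79 ± 0.02 (SD, n = 3) in normoxia, 14.80 ± 0.12 in normoxia with inhibitor, 14.78 ± 0.07 in hypoxia and 14.79 ± 0.02 in hypoxia with inhibitor. Its change was -0.01, with a 95% interval of -0.17 to 0.14. Rpl10, a late-joining protein of the 60S subunit, had 0.02 (interval -0.16 to 0.20), and Rps14, of the 40S platform, had -0.07. Rps6, the substrate of S6 kinase, had -0.15 (SE 0.11), Rps3, also a DNA repair protein, -0.11 on its brightest probe, Rps4x, encoded on the X chromosome, -0.11, and Rplp0, the core of the stalk, -0.11. Among large-subunit members with described roles outside general translation, Rpl13a had -0.22 (SE 0.14), Rpl24 -0.19, Rpl22 -0.15 and Rpl38, linked to Hox messenger translation in mouse embryos, -0.05. A second bright Rps3 probe, at a mean of 13.90, had -0.23 (SE 0.10, adjusted p = 0.218), as large as the change of Rps19. None of these passed the test over the 12 arrays.

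Few members ran the other way. Rps15a, of the small subunit, read 6.14, 5.72 and 6.02 in normoxia, 5.65, 6.19 and 5.69 in normoxia with inhibitor, 6.35, 6.12 and 5.85 in hypoxia and 6.31, 6.53 and 6.11 in hypoxia with inhibitor. These groups overlapped, the signal was dim, and the change was 0.31 (SE 0.13, adjusted p = 0.223). Rps19bp1, not a ribosomal protein, had 0.20, Rpl29 0.12 on its dim probe against -0.17 on its bright one, and Rpl22l1, the paralog of Rpl22, 0.09. Of the other paralogs, Rpl7l1 had -0.21 (SE 0.09) and Rpl3l -0.02. Rpl39l was detected on no hypoxia array, so its level there is only a bound. Without the inhibitor, where 2 normoxia arrays detected it, its mean log2 signal was 5.25 in normoxia and 4.85 in hypoxia (limma adjusted p = 0.594). Rpl39l was kept only through normoxia arrays, so a higher normoxia mean follows in part from the filter. No fold is given without or with the inhibitor. Its signals of 4.47 to 5.65 overlapped between oxygen levels.

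Most of the positive changes were those of dim probes. The 16 members with a mean under 10 had a median change of -0.03 with 10 negative and 6 positive, and only 2 of the 59 bright members were positive. Of the 13 genes with several kept probes, 3 (Rps19, Rpl29 and Rplp0) had probes of opposite sign in this comparison, in each case with the dim probe positive.

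**Figure D3:**
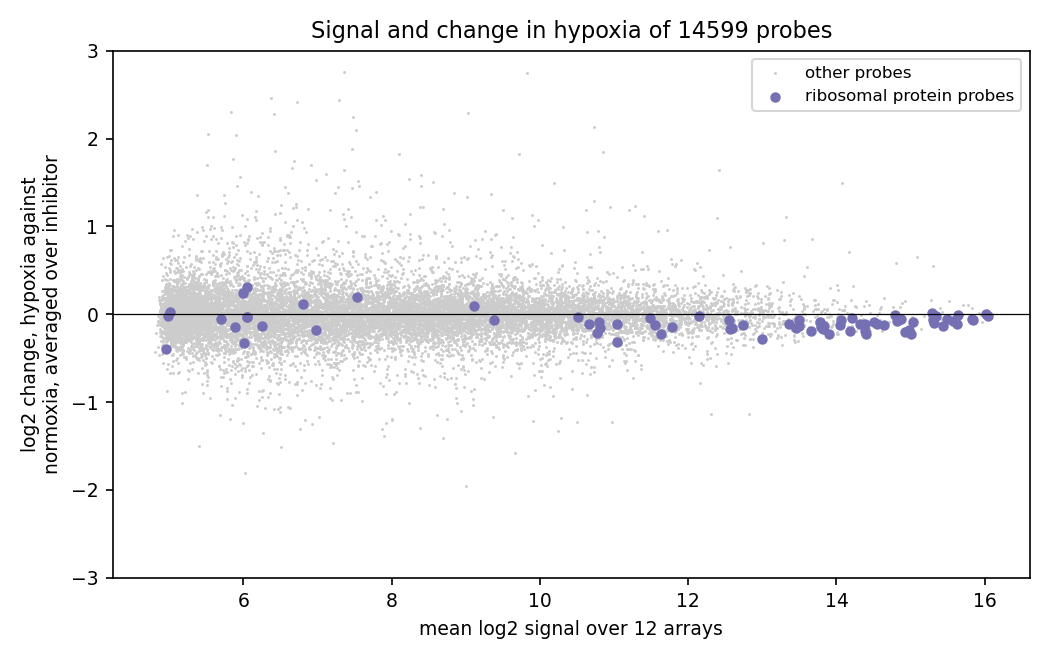
Mean log2 signal over 12 arrays (horizontal) against the log2 change in hypoxia averaged over the inhibitor (vertical) for the 14599 probes tested, with the 75 ribosomal protein probes in colour. Bright members form a narrow band just below 0, within -0.32 to 0.02, while the 16 members under a mean of 10 scatter on both sides.

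The oxygen difference was of like size in the groups without and with the inhibitor, which share no arrays. Same-numbered arrays did deviate together across the inhibitor in normoxia, so these comparisons are not independent. Without the inhibitor 63 of 75 probes were negative (51.8% of all probes), with a median of -0.11, and with it 63 of 75 (51.3%), with a median of -0.09. Both changes were negative for 56 of 75 members, against 36.2% of all probes, and both positive for 4, against 33%. With 63 of 75 negative in each comparison, a large overlap follows from those counts alone, so the 56 are no separate result. Without the inhibitor limma called 0 members higher and 0 lower, where 0.623% and 0.39% of all probes were called; 0 and 5 reached an unadjusted p under 0.05 (6.2% and 5.69%), and 14 members had all 3 hypoxia arrays below all 3 normoxia arrays, against 10.1% of all probes. With the inhibitor limma called 0 and 0 (0.452% and 0.404% of all probes), 1 and 5 reached an unadjusted p under 0.05 (5.76% and 5.97%), and 10 members had separated groups in the lower direction (8.28%). No member had separated groups in the higher direction in either comparison (9.97% and 7.12%).

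The leading members differed somewhat between these comparisons. Apart from Rpl39l, not detected in hypoxia, the lowest values without the inhibitor were Rps24 at -0.35 (SE 0.22), Rpl7l1 at -0.32 (SE 0.13) and the dim Rpl27a probe at -0.30, and the highest the dim probes of Rpl29 and Rps19 at 0.22, Rps25 at 0.19 and Rps19bp1 at 0.16. With it the lowest were both Rpl4 probes at -0.39 and -0.37 and Rpl13a at -0.33 (SE 0.19), and the highest Rps15a at 0.47 (SE 0.19), Rpl22l1 and the dim Rps19 probe at 0.27 and Rps19bp1 at 0.23. The smallest limma adjusted p was 0.320 without and 0.281 with the inhibitor.

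**Figure D4:**
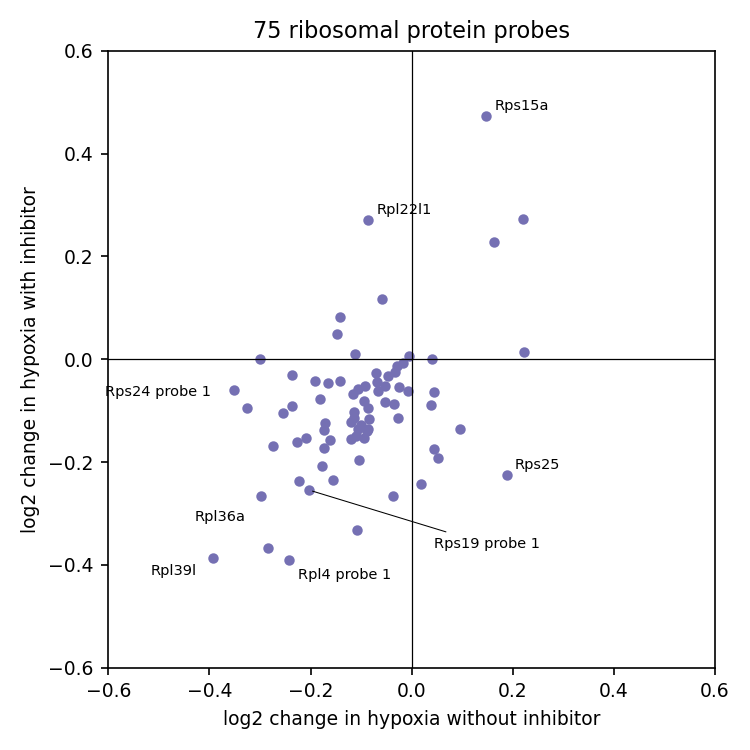
Log2 change in hypoxia without the inhibitor (horizontal) and with it (vertical) for the 75 ribosomal protein probes, each point a probe and each axis from 6 arrays of its own. Of the 75 points 56 lie at the lower left, where both are negative, and 4 in the upper right.

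By replicate number the size of the difference varied. Between same-numbered arrays without the inhibitor, the median member change was -0.19 for number 1 (62 of 75 lower), -0.10 for number 2 (60 lower) and -0.01 for number 3 (43 lower). With the inhibitor it was -0.13 (60 lower), -0.10 (54 lower) and -0.07 (52 lower). The difference of number 3 without the inhibitor was thus close to 0. The summed pluripotency signal in normoxia and hypoxia was 11534 and 11585 in that pair, 27294 and 10911 for number 1, and 27256 and 12626 for number 2. With the inhibitor it was 23606 and 9062 for number 1, 23179 and 8685 for number 2, and 3690 and 2851 for number 3. Whether these sums bear on the ribosomal protein differences was not tested. Leaving out the hypoxia 1 array moved the median without the inhibitor from -0.11 to -0.06, with 57 of 75 lower.

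The share of the array signal carried by the family showed the same ordering. It was 9.17, 9.16 and 8.92% in normoxia and 9.04, 9.06 and 8.83% in normoxia with inhibitor, against 8.26, 8.60 and 8.72% in hypoxia and 8.39, 8.52 and 8.43% in hypoxia with inhibitor. After quantile normalization the 6 normoxia values lay above the 6 hypoxia values. Without it the ranges were 8.77 to 9.31% in normoxia and 8.61 to 9.32% with inhibitor, and 8.24 to 8.80% in hypoxia and 8.09 to 8.51% with inhibitor, so that they overlapped. In the authors' processed table they were 8.91 to 9.23%, 8.83 to 9.19%, 8.28 to 8.81% and 8.42 to 8.51%, without overlap between oxygen levels.

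**Figure D5:**
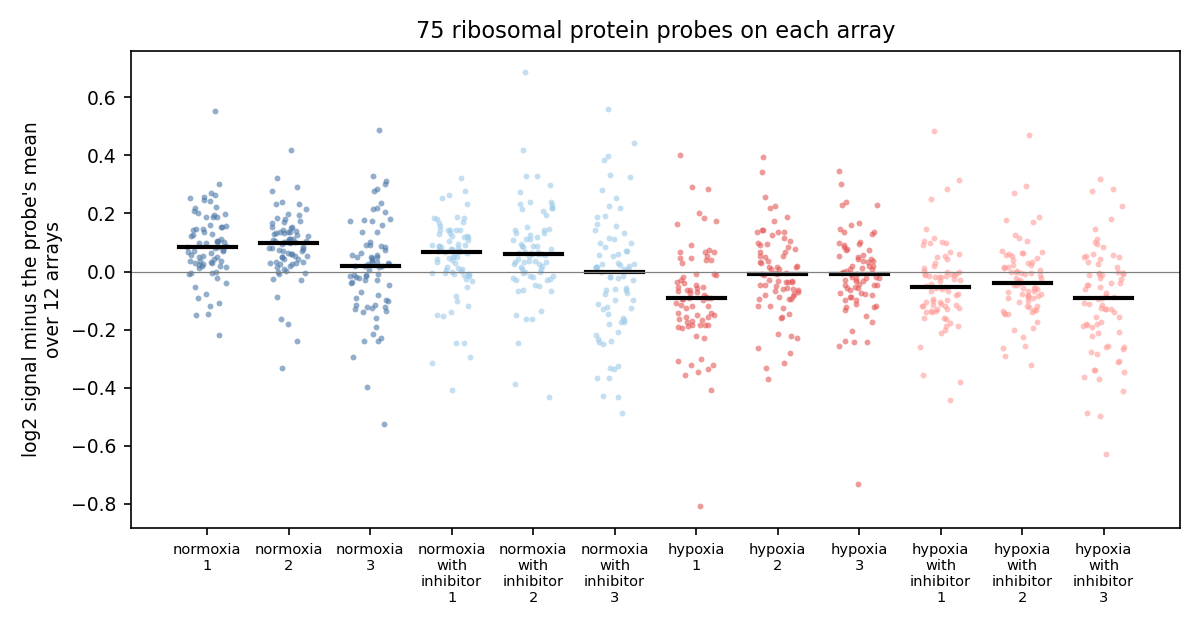
Log2 signal of each of the 75 ribosomal protein probes minus its own mean over 12 arrays (vertical), by array (horizontal); points are probes and bars the median of an array. The medians run from 0.10 in normoxia 2 to -0.09 in hypoxia 1 and hypoxia with inhibitor 3, and that of normoxia with inhibitor 3 is near 0.

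No effect of the gamma-secretase inhibitor on a family member was detectable. In normoxia the median change was -0.01 with 51 of 75 negative (50.5% of all probes), in hypoxia -0.01 with 41 negative (50.2%), and averaged over oxygen -0.02 with 49 negative (50.4%). With limma 0 members were called in any of these comparisons and 0 reached an unadjusted p under 0.05. Among all probes 0% were called in normoxia, 0% in hypoxia, and 0% higher and 0.00685% lower averaged over oxygen. An unadjusted p under 0.05 was reached by 1.04% higher and 1.01% lower in normoxia, 1.94% and 2.11% in hypoxia, and 2.27% and 2.07% averaged. The averaged effect had a 95% interval within 1.5-fold for 74 of 75 members (87.7% of all probes) and within 1.25-fold for 56, so that larger effects were outside what most intervals allow. The limit given above for members at the top ranks holds here too.

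For a few members the arrays with and without the inhibitor did not overlap. In hypoxia all 3 arrays with the inhibitor lay below all 3 without it for 6 members (4.9% of all probes), the bright probes of Rps19 and Rpl4, a second probe of Rpl23, Rps10, Rps21 and the dim Rps24 probe, and in normoxia for 1, Rpl37a (2.86%). None had the opposite in hypoxia (4.16%) or normoxia (3.19%). In normoxia the extremes were Rpl22l1 at -0.24 and the dim second Rplp0 probe at -0.23, and the dim Rpl29 and Rpl4 probes at 0.13. In hypoxia they were Rps25 at -0.35 (SE 0.18) and the bright Rpl4 probe at -0.28 (SE 0.14), Rpl3l being detected on no hypoxia array with inhibitor, and the dim Rpl27a probe at 0.30 and Rps15a at 0.21. The smallest limma adjusted p was 1.00 in normoxia and 0.998 in hypoxia, and averaged over oxygen it was 0.999, with the bright Rpl4 probe at -0.21 (SE 0.10).

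The oxygen effect did not differ detectably with the inhibitor for any member. The interaction had a median of 0.01 with 34 of 75 negative (50.5% of all probes), and limma called 0 members and 0% of all probes. At an unadjusted p under 0.05 it was 0 members, against 0.973% higher and 0.829% lower of all probes. Its largest values were those of Rps25, a small-subunit protein known for initiation at internal ribosome entry sites, at -0.41 (SE 0.26), and of Rpl22l1 at 0.36 (SE 0.25), Rps15a at 0.32 and the dim Rpl27a probe at 0.30. Rps25 read 12.12, 11.90 and 12.35 in normoxia, 11.85, 12.36 and 12.34 in normoxia with inhibitor, 12.21, 12.28 and 12.45 in hypoxia and 11.70, 11.92 and 12.26 in hypoxia with inhibitor. All 4 groups overlapped.

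Replicate 3 differed from replicates 1 and 2 within groups for a few members. With group and replicate number as terms, limma called 3 probes higher and 8 lower in replicate 3, against 8.32% and 8.66% of all probes, and the log2 difference was negative for 44 of 75 (49%). The clearest was Rps24, a small-subunit protein mutated in some Diamond-Blackfan patients, whose messenger is known to be spliced in alternative forms at its end. Its bright probe read 14.95, 14.93 and 15.41 in normoxia, 14.77, 14.77 and 15.32 in normoxia with inhibitor, 14.57, 14.61 and 15.06 in hypoxia and 14.66, 14.79 and 15.24 in hypoxia with inhibitor. Replicate 3 was the highest array of all 4 groups, by 0.50 (SE 0.06, adjusted p = 0.00272). A second Rps24 probe at a mean of 9.38 read 9.59, 9.48 and 9.08 in normoxia, 9.56, 9.61 and 9.14 in normoxia with inhibitor, 9.42, 9.47 and 9.40 in hypoxia and 9.26, 9.37 and 9.16 in hypoxia with inhibitor. Here replicate 3 was the lowest array of every group, with a change of -0.28 (SE 0.09, adjusted p = 0.0553). Both Rps24 probes are annotated to the same transcript, and why they differ was not tested.

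The other calls by replicate were the dim probes of Rpl23 (0.35) and Rpl4 (0.28), higher in replicate 3, and, lower, Rpl14 (-0.56, adjusted p = 0.0152), Rpl3l (-0.51, detected on 4 arrays), the second probes of Rpl29 (-0.41) and Rpl38 (-0.38), Rpl13a (-0.37), Rpl24 (-0.31), Rpl7a (-0.28) and Rps26 (-0.23). The 2 Rpl38 probes are annotated to different transcripts, and the bright one was not called. In replicate 3, 11 of 14 pluripotency markers were also called lower and 1 higher, with a median of -1.24. Of 12 haematopoietic markers 5 were called lower and 1 higher (median -0.46), of 11 mural and fibroblast markers 2 were lower (median -0.20), and of 14 endothelial markers 2 were higher (median 0.14, 2 negative). The part of these cells in the ribosomal protein values was not tested. With 1 of the 12 arrays left out in turn, the call of the bright Rps24 probe held for all 12 arrays and that of Rpl14 for 11, whereas without normoxia 3 the bright Rps24 probe alone was called. What the replicate number stands for was not tested, and the labels do not give it.

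Apart from the groups, members varied together only weakly. After removal of group means, the median correlation between pairs of member genes over 12 arrays was 0.12 for all 60, and 0.13 for the 53 bright ones, against 0.003 among all 2300 genes with a bright probe, as a description over arrays that share their replicate numbers. The 10 genes outside the family whose residuals ran most like the members' median were Mrps12, a mitochondrial ribosomal protein (Pearson r = 0.96 over 12 arrays), H2ac7, a histone (0.94), Apobec3, Snrpd3 and Snrpd1 (0.93), Aspscr1, Snrpa1, Atp5g2 and Actn3 (0.91) and Arhgap30 (0.90). Snrpd1, Snrpd3 and Snrpa1 are parts of the spliceosome. These 10 were picked as the highest values among all named genes outside the family. Over 12 arrays, high correlations follow in part from such picking, so the list is no result about a process. Apobec3, Actn3 and Arhgap30 were also dim, with mean log2 signals of 5.38, 5.13 and 5.66.

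The oxygen changes were also read by promoter sequence, as a description. Among ribosomal protein genes with a promoter in the table, the 9 with a tract at the annotated start had a median change of -0.12 (8 negative) and the 36 without one -0.11 (34 negative). The 15 with ACGTG had -0.09 (15 negative) and the 30 without it -0.11 (27 negative). The 32 with CTTCCG had -0.11 and the 13 without it -0.11.

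Neighbouring steps of protein synthesis were set beside the family, each as a fixed list and in hypoxia averaged over the inhibitor. For this and the lists below, 2.84% of all probes were called higher and 2.46% lower, and 4.32% lower with a replicate block. Without the block, calls among mitochondrial ribosomal proteins, initiation factors and biogenesis factors were near or below these shares. The single genes named from those lists are thus no result about the lists. The lists overlap in part: that of TOP messengers also names Fau, Npm1 and some initiation factors. Fau, which encodes the small-subunit protein eS30 fused to a ubiquitin-like protein and falls outside the naming rule, had -0.05 (SE 0.07). Mitochondrial ribosomal proteins, a separate set that serves the organelle, were negative for 56 of 72 genes with a median of -0.09, and 1 passed the limma test, Mrpl37 at -0.27 (adjusted p = 0.0484), against 5 with a replicate block. Elongation factors and other TOP messengers were negative for 14 of 17 with a median of -0.10, and none passed, Eef1b2 having -0.29 (adjusted p = 0.0719) and Hnrnpa1 0.33 (adjusted p = 0.205, and 0.0182 with a replicate block, under which it alone passed). Both medians lie near that of the ribosomal proteins, against -0.01 over all probes.

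Initiation factors were negative for 17 of 33 with a median of -0.01, and 1 rose, Eif1ad by 0.32 (adjusted p = 0.0457). With a replicate block 2 passed, Eif4a2 being the other at -0.34 (adjusted p = 0.0467). Ribosome biogenesis factors, which assemble the particle in the nucleolus, were negative for 24 of 40 with a median of -0.02; Pes1, needed for 60S maturation, rose by 0.55 (adjusted p = 0.0242), and Nop10, of the H/ACA particle that modifies ribosomal RNA, fell by 0.31 (adjusted p = 0.0443). With a replicate block 4 of the biogenesis factors passed. RNA polymerase I and its factors, which transcribe ribosomal RNA, were negative for 9 of 14 with a median of -0.08, and Polr1e fell by 0.51 (adjusted p = 0.0277).

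Among 22 regulators of TOP translation and growth signalling, 12 were negative and 3 passed the test: Ddit4l fell by 0.87 (adjusted p = 0.0142), Sesn3 by 0.51 (adjusted p = 0.0305) and Sesn1 by 0.48 (adjusted p = 0.00962). All 3 encode proteins known to restrain mTOR. The p53 list, set here because unassembled ribosomal proteins such as Rpl5 bind Mdm2, was negative for all 12 measured genes with a median of -0.37, and 6 passed (7 with a replicate block). Sesn1 is named in the regulator list and in the p53 list and is counted in each. Mdm2 fell by 0.56 (adjusted p = 0.00621), Zmat3 by 0.59 (adjusted p = 0.00802) and Trp53inp1 by 0.56 (adjusted p = 0.0236). Rps27l, a ribosomal protein paralog that p53 is known to induce, was the member nearest to this list, at -0.22 without passing the test. Rpl36a and the bright probes of Rpl4 and Rps19, described above, fell by as much or more, so a change of this size is not particular to Rps27l.

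Markers of other cells were read in the same comparison. Pluripotency markers were negative for 13 of 14 with a median of -0.62, and 0 passed the limma test, with 3 lower at an unadjusted p under 0.05. Of 12 haematopoietic markers 2 passed higher, Lcp1 by 1.22 among them, and 3 lower, among them the embryonic globin Hbb-y, which fell by 1.22, and 6 passed in all with a replicate block. Of 14 endothelial markers Vwf passed, by 1.22, and of 11 mural and fibroblast markers Col1a2, by 0.88 (with a replicate block also Des, by 0.90), while 2 endoderm markers of 12 were measured and neither passed. The part of these cells in the ribosomal protein values was not tested.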

How the data were processed

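The members and the gene lists were chosen with earlier results of these data known. Per the file headers, the deposited table pairs a detection p-value with a linear intensity for every probe of an array; 23.3% of these intensities are below 0, so background had been subtracted. The submitters' processing notes name BeadStudio without a version. A processed intensity table of the authors, of a scaling not given in the sources used here, served as an alternative. Symbols came from a platform annotation of the array (23978 probes with 1 symbol, 1719 with none), and promoter sequences from RefSeq (GRCm38.p6).

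In R 4.3.3 with limma 3.58.1, background was corrected by the normal-exponential model fitted from detection p-values, with an offset of 16, followed by quantile normalization and log2. Probes detected (p under 0.05) on at least 3 of 12 arrays were fitted as 4 group means with 8 residual degrees of freedom. Tests were two-sided, with Benjamini-Hochberg adjustment over all 14599 probes and a threshold of 0.05. The fit was tested on simulated data. A gene with several probes is represented by that with the highest mean. Named members are the 4 largest changes in each direction of a comparison, called members, a panel of well-studied genes, the paralogs, and the brightest and dimmest; Rpl7a, Rps26, Rpl35, Rps10, Rpl23, Rpl37a, Eif4a2 and Des fall outside this rule and were named after their values were seen, as called or separated. The number of arrays limits precision.

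Alternatives were another offset, scaling to the 75th percentile, a floor of 20, the processed table, other detection filters, a replicate block, 1 probe per gene, and arrays left out. Over all probes, same-numbered arrays deviated together, with correlations of 0.301 to 0.58 in the hypoxia comparison without inhibitor, of 0.107 to 0.251 in that with inhibitor, and of 0.381 to 0.642 under the inhibitor in normoxia. On these values the numbers were taken to pair these arrays, but not those of the inhibitor in hypoxia (0.028 to 0.082). Over the 75 members alone the order differed. Their correlations were 0.423 to 0.576 for hypoxia without inhibitor and 0.278 to 0.65 with it. For the inhibitor they were 0.047 to 0.752 in normoxia and 0.238 to 0.535 in hypoxia. Plots were made in Python 3.11.15 (matplotlib 3.10.9).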

Additional observations from a re-analysis of the deposited data

How the results depend on the processing

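The direction of the oxygen medians was the same under every alternative run; the medians of the inhibitor in hypoxia and of the interaction lay near 0 and took either sign, with 0.006 for the former in the authors' processed table and -0.0282 for the latter with scaling to the 75th percentile. The oxygen median averaged over the inhibitor was -0.09 with an offset of 50, -0.11 with scaling to the 75th percentile, -0.11 with a floor of 20 and -0.09 in the authors' processed table. Its count of members called lower, 0 in the fit described, was 2 with an offset of 50 (Rps19 and Rpl36a), 1 without the detection filter (Rps19), 1 with detection on all 12 arrays (Rps19) and 9 without replicate 3 in any group. With the replicate block it was 3 (Rps19, Rpl36a and the dim Rpl4 probe), and it changed no other call of a ribosomal protein; its effect on the other gene lists stands beside their counts. Among all probes 4.32% were called lower with the block and 9.66% without replicate 3. For the other offset, scaling, floor, processed table, filters and single arrays left out, no such share was computed. Those counts, also for replicate 3, therefore cannot be set against all probes. The inhibitor median averaged over oxygen was -0.0415 with scaling to the 75th percentile. For replicate 3, with 3 higher and 8 lower in the fit described, the count lower was 5 with a floor of 20, 6 in the authors' processed table and with the brightest probe per gene, 11 with scaling to the 75th percentile and 12 with an offset of 50. The count higher was 1 with the brightest probe per gene. The dim Rps24 probe was called lower under 4 of these alternatives, namely the offset of 50, the scaling, the processed table and detection on all 12 arrays. With 1 array left out in turn, the comparisons of oxygen, inhibitor and interaction kept 0 calls. Their medians ran from -0.13 to -0.06 for hypoxia without the inhibitor, -0.10 to -0.09 with it, -0.12 to -0.08 averaged, -0.0485 to -0.0098 for the inhibitor in normoxia, -0.0449 to 0.004 in hypoxia, -0.0354 to -0.0015 averaged, and -0.03 to 0.03 for the interaction. For replicate 3 the counts ran from 1 to 5 higher and 0 to 8 lower. Signal over background limits the 16 members with a mean log2 signal under 10, whose median SE was 0.13 for the averaged oxygen effect, against 0.08 for the bright ones.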
